A study of Homo sapiens with 12 samples.

Results

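Genes often have more than one start. The regions described here are transcript 5′ ends that lie inside protein-coding genes and carry a histone H3 lysine 4 trimethylation (H3K4me3) peak. By rule, such an end lay on chromosomes 1 to 22 or X, over 2.5 kb downstream of the most 5′ end annotated for its gene and over 2.5 kb from the most 5′ end of any other gene. It also lay within 1 kb of an H3K4me3 peak in at least 3 of 5 deposited H3K4me3 peak lists, and within 1 kb of no peak from the nonspecific IgG antibody. Of 57374 eligible internal ends in 11986 genes, 3883 met the rule, which is 6.77% of those ends, and they fell in 752 genes, which is 6.27% of those genes. Ends of 1 gene that lay within 1 kb of each other can share peaks and were joined into 793 sites, with a median of 4 ends per site. The members were chosen by the presence of peaks in these H3K4me3 lists, so their having peaks is a description and not a finding. A further 15 ends had peaks in at least 3 lists and were dropped for an IgG peak.

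The libraries are CUT&RUN libraries, in which an antibody directs a nuclease to cut out the chromatin it binds, from BON1, an established line grown from a human pancreatic neuroendocrine tumor. The control line carried the pQ vector (BON1/TGL/pQ), and the other line expressed HA-tagged Bcl-xL, a protein known for blocking apoptosis (BON1/TGL/HA-Bcl-xL). Both lines grew with puromycin, and each library started from 500000 cells. There were 3 libraries each of control H3K4me3, control IgG and HA-Bcl-xL IgG, and HA-Bcl-xL H3K4me3 was used from replicates 2 and 3, with replicate 1 not analysed here.

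H3K4me3 marks nucleosomes beside active and poised transcription starts and is deposited by SET1 and MLL family complexes, many of which are drawn to unmethylated CpG-rich DNA. When a gene has several promoters, each can carry its own H3K4me3, and an internal promoter can give an mRNA with another first exon, a different cell type or timing of use, or a protein lacking its first residues. In bulk cells a smaller share of cells carrying the mark and less mark per cell cannot be told apart.

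The sequence at an internal end and at the most 5′ end of the same gene often looked unlike. The 100 bases upstream of both ends are shown for 3 genes with internal peaks in 3 or 5 lists and no most 5′ peak. LMNA is also shown, at the most upstream end of its internal site, where the CpG contrast of the printed stretches ran the other way. All are from GRCh37 (hg19), read 5′ to 3′ on the gene's strand, overlap no annotated exon, and have the CpG dinucleotides in capitals.
ZNF546 internal end, 5 lists, chr19:40502843-40502942, plus strand: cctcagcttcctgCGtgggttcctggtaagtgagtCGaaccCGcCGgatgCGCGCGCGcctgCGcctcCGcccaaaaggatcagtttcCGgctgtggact
ZNF546 most 5′ end, no list, chr19:40489941-40490040, plus strand: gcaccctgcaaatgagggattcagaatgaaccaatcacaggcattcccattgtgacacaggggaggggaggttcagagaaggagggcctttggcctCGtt
TPM3 internal end, 5 lists, chr1:154155704-154155803, minus strand: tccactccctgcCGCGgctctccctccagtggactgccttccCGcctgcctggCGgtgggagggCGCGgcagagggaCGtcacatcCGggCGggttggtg
TPM3 most 5′ end, no list, chr1:154167125-154167224, minus strand: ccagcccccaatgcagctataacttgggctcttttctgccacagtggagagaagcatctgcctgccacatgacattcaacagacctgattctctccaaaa
CPE internal end, 3 lists, chr4:166300060-166300159, plus strand: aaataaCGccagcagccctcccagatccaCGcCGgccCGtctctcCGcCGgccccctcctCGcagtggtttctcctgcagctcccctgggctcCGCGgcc
CPE most 5′ end, no list, chr4:166282246-166282345, plus strand: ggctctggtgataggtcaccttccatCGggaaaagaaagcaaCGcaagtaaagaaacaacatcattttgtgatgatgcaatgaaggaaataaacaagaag
LMNA internal end, 5 lists, chr1:156083942-156084041, plus strand: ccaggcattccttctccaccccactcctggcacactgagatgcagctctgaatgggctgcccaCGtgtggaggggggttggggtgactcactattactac
LMNA most 5′ end, no list, chr1:156052264-156052363, plus strand: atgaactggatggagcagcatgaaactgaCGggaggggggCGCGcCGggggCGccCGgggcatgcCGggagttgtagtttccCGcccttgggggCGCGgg
These stretches held 11 CpGs at the internal and 1 at the most 5′ end of ZNF546, 9 and 0 at TPM3, and 9 and 2 at CPE. LMNA held 1 at the most upstream end of its internal site and 10 at its most 5′ end. That internal stretch ends at 156084041, while the MANE Select start of the site, beside which the strongest peaks lay, is at 156084502. The LMNA stretch therefore does not show the CpG content at the marked start. They were chosen to show the contrast described below, not as a sample of the sites.

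Internal by annotation did not mean minor. Of the 793 sites, 499 (62.9%) held the start of the gene's MANE Select transcript, the reference transcript on which RefSeq and Ensembl agree, so in these genes the most 5′ annotated end belongs to another transcript. Of the 1833 eligible genes whose MANE Select start is itself an eligible internal end, 499 (27.2%) had that start among the members, against 3384 of 55541 other eligible ends (6.09%). The sites are therefore called internal ends below, by their position, and not alternative promoters. At 711 sites (89.7%) at least 1 of the transcripts was annotated as protein coding. Relative to the other transcripts of the gene, 695 sites (87.6%) lay in an intron, 69 (8.70%) in a noncoding part of an exon and 29 (3.66%) in a coding exon.

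The sites lay a median of 19.7 kb downstream of the most 5′ end, with quartiles at 7.95 and 52.2 kb and a range from 2.501 to 1116 kb. The farthest was RUNX1, a hematopoietic transcription factor with a well-known pair of promoters. Among sites with peaks in all 5 lists, the 3 farthest were all in RABGAP1L, a Rab GTPase-activating protein, at 715, 716 and 718 kb. Just inside the distance limit were ends of TRIB1 at 2501 bp (5 lists), ACBD5 at 2503 bp (4 lists) and MAT2B at 2505 bp (5 lists), and just outside it were ends of METTL9 and MAT2B at 2500 bp and PLOD2 at 2496 bp, all with peaks in 5 lists.

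Most of the genes had no peak at their most 5′ end. In 432 of the 752 genes (57.4%), no H3K4me3 list had a peak within 1 kb of the most 5′ end. In 320 genes (42.6%) at least 1 list did, against 48.3% of all 20098 protein-coding genes and 54.6% of the genes with an eligible internal end but no member. A peak in at least 3 lists was present at the most 5′ end of 235 genes (31.2%), against 35.6% of all protein-coding genes. A peak in all 5 lists was present there in 141 genes (18.8%), for which no share over all genes was counted. The share without a peak depends on the window: it was 44.5% of 907 genes when members and most 5′ ends were both called within 2 kb, and 44 of the 432 genes (10.2%) had a peak between 1 and 2 kb away. Sites of genes without a most 5′ peak lay a median of 18.1 kb downstream, and sites of genes with one in at least 3 lists lay a median of 21.8 kb downstream.

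**Figure D1:**
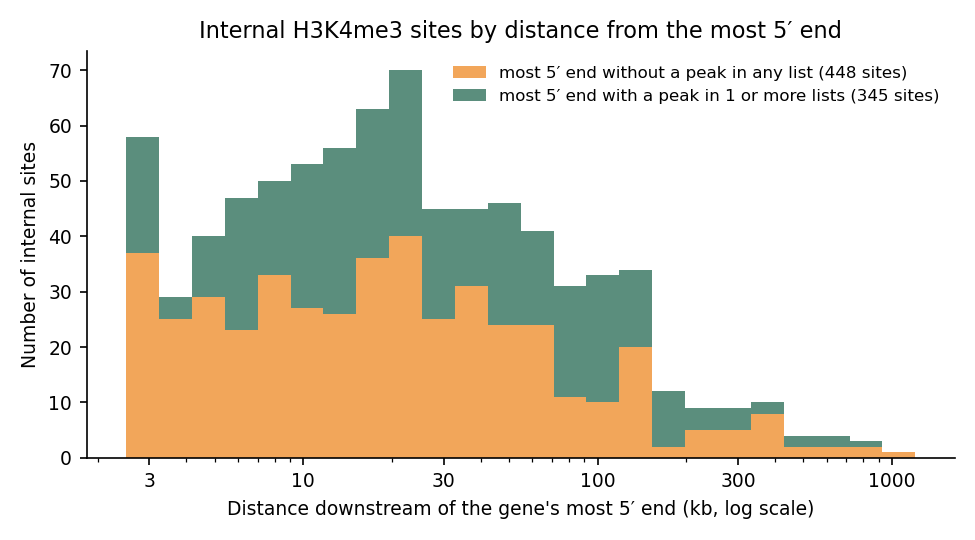
Histogram of the 793 internal sites by distance downstream of the gene's most 5′ end (kb, log scale), stacked by whether that most 5′ end had no peak in any H3K4me3 list (448 sites) or a peak in 1 or more lists (345 sites). Both kinds of site extend over most of the range, with medians of 18.1 kb for sites of genes with no most 5′ peak and 19.7 kb over all sites.

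By distance, the share of sites whose gene also had a peak at its most 5′ end was 28.0% of 118 sites from 2.5 to 5 kb and 44.2% of 129 sites from 5 to 10 kb. Beyond that it was 48.1% of 154 sites to 20 kb, 41.8% of 184 sites to 50 kb, 52 of 104 sites to 100 kb and 52 of 104 sites farther out. The nearest class had the lowest share, and the others showed no steady order with distance. By transcript, 292 of 499 MANE Select sites (58.5%) and 156 of 294 others (53.1%) belonged to genes with no peak at the most 5′ end.

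The unmarked most 5′ ends were CpG-poor and the internal ends were CpG-rich. From 250 bases upstream to 50 downstream, the internal sites had a median GC content of 62.3% and a median of 22 CpGs. The unmarked most 5′ ends of the same genes had 50% and 4.5 CpGs, and the most 5′ ends marked in at least 3 lists had 64.0% and 24 CpGs. The ratio of observed to expected CpG was 0.778 at the internal sites, 0.261 at the unmarked and 0.817 at the marked most 5′ ends. In 354 of the 432 genes without a most 5′ peak (81.9%) the internal end had more CpGs than the most 5′ end, with 5 equal. The ends of these pairs were picked for opposite marking, so this count is a description. Where the most 5′ end was marked in at least 3 lists, the internal end had more in 95 of 235 genes (40.4%), with 7 equal.

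**Figure D2:**
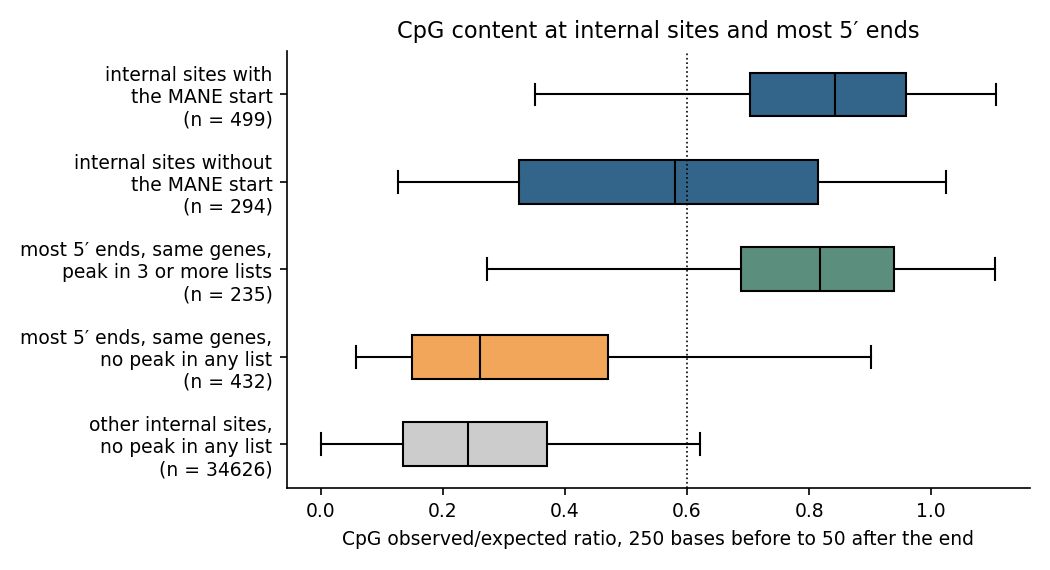
Observed-to-expected CpG ratio from 250 bases before to 50 after the end, for internal sites with and without the MANE Select start, most 5′ ends of the same genes with a peak in 3 or more lists or in none, and other internal sites with no peak; boxes span the quartiles with the median as a line, whiskers the 5th to 95th percentile, and the dotted line is 0.6. The medians were 0.843 and 0.581 at the internal sites, 0.817 and 0.261 at the marked and unmarked most 5′ ends, and 0.242 at the other internal sites.

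A window with GC over 50% and an observed-to-expected CpG ratio over 0.6 was found at 543 sites (68.5%). It was found at 82.8% of the MANE Select sites and 44.2% of the other sites, so the sites that are not reference starts were poorer in CpG. The corresponding shares were 18.1% at the unmarked most 5′ ends of the same genes, 54.7% at all most 5′ ends, and 4.01% at 34626 eligible internal sites with no peak in any list. Eligible sites that hold a MANE Select start but had no peak in any list were in between, at 31.2% of 1098. CpG content and H3K4me3 are related across all promoters in these lists, since 81.5% of all most 5′ ends marked in at least 3 lists met the same criterion.

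Peak widths and heights at internal sites are given beside those at most 5′ ends as a description, since internal sites were kept for peaks in at least 3 lists and most 5′ ends needed only the list at hand. In the 5 lists the median width of a peak at an internal site was 143, 134 and 117 bp (control replicates 1 to 3) and 125.5 and 126 bp (HA-Bcl-xL replicates 2 and 3). At most 5′ ends the medians were 137, 129, 117, 124 and 121 bp in the same order. The median fragment pileup at the summit was 12, 11, 9, 11 and 11 at internal sites and 12, 11, 10, 11 and 11 at most 5′ ends. This pileup is the number of overlapping fragments that gives the deposited fold enrichment and p-value of a peak. With about 10 fragments at a typical summit, the lists hold only what such a depth can detect, and an end without a peak was not shown to lack the mark. In genes with a peak at both ends, the internal peak had the higher rank of −log10 p within its list in 133 of 251, 100 of 184 and 63 of 136 genes in the control lists and in 133 of 238 and 125 of 224 in the HA-Bcl-xL lists, which is 46.3 to 55.9%. The internal rank was the highest over the whole site, which can hold several ends. The most 5′ rank was the highest within 1 kb of 1 end, so the windows were not alike.

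Summits lay on either side of the internal end with a tilt downstream. In the control lists 59.8, 59.6 and 57.6% of sites had the summit of their strongest peak downstream of the internal end, and in the HA-Bcl-xL lists 59.5 and 60.5%, against 55.3 to 57.2% at most 5′ ends in the 5 lists. The median summit lay 214 to 246 bp downstream of the internal end and 34 to 50 bp downstream of the most 5′ end. A single 100 bp bin, immediately upstream of the start, held 19.9 to 22.9% of the summits at internal ends and 19.6 to 22.9% at most 5′ ends. The next bin, over the first 100 bases of the transcript, held 4.93 to 6.64% at internal ends and 8.94 to 10.3% at most 5′ ends. Internal sites span several annotated ends, and a summit was measured from 1 representative end per site.

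**Figure D3:**
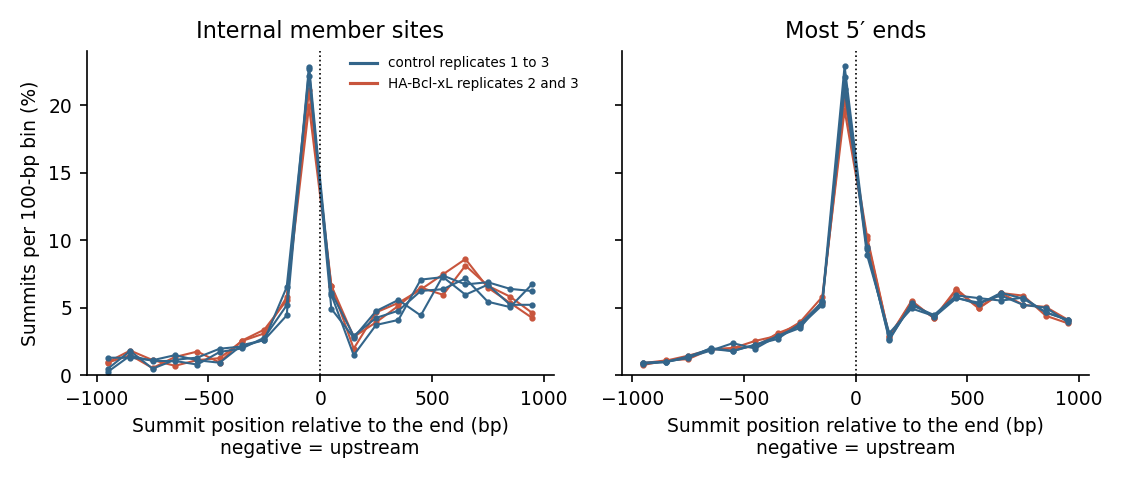
Position of the summit of the strongest H3K4me3 peak relative to the transcript end (100 bp bins, negative values upstream) at internal sites and at most 5′ ends, as a percentage of summits, with 1 line per library. Both profiles peak in the bin just upstream of the end, with 19.9 to 22.9% of summits at internal sites, and have a lower, broad rise downstream.

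The sites of highest rank fell in genes with and without a second marked end. Among genes whose most 5′ end was also marked, these were UNC79, FAM200A, CHD8, UBE2V1, SUN2 and PPFIA3. UBE2V1, a ubiquitin-conjugating enzyme variant, had its site 2.809 kb downstream (chr20, end at 48729687) with summit pileups of 36, 31 and 26 fragments in the control lists and 27 and 35 in the HA-Bcl-xL lists. SUN2, a nuclear envelope protein that links the nucleus to the cytoskeleton, had 36, 29 and 22 in control and 19 and 28 in HA-Bcl-xL at its MANE Select start 38.1 kb downstream (chr22, end at 39152003). The lines overlapped at both genes. CHD8, a chromatin remodeler, had 36, 31 and 26 in control and 30 and 29 in HA-Bcl-xL, 18.9 kb downstream. UNC79, a component of the NALCN sodium leak channel complex, had 45, 30 and 23 in control and 44 and 39 in HA-Bcl-xL, 97.7 kb downstream, with the summits 495 to 526 bp past the end. PPFIA3, a liprin of synaptic and secretory sites, had 28, 28 and 22 in control and 41 and 33 in HA-Bcl-xL, and the lines did not overlap. The PPFIA3 summits lay 888 to 910 bp past the end of 1 retained-intron transcript, and the same peak was assigned to another PPFIA3 site, so whether that start is the marked one was not tested. The pileup was not scaled for depth, and its difference was not tested.

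Among genes with no peak at the most 5′ end in any list, the highest ranks were at MYO1F, ZNF546, SNU13, GEMIN6, MED24 and CRK. ZNF546, a zinc finger gene, had pileups of 44, 28 and 28 fragments in control and 28 and 29 in HA-Bcl-xL at its MANE Select start, with every summit at -45 to -22 bp from the end. CRK, an adaptor that couples tyrosine kinases to small GTPases, had 36, 23 and 21 in control and 22 and 31 in HA-Bcl-xL. Its summits lay 791 to 815 bp past its MANE Select start (chr17, 1359526), so whether that start is the marked one was not tested. GEMIN6, a subunit of the SMN complex that assembles spliceosomal particles, had 25, 27 and 21 in control and 32 and 24 in HA-Bcl-xL. MED24, a Mediator subunit, had 39, 35 and 15 in control and 36 and 35 in HA-Bcl-xL, with control replicate 3 the lowest of the 5. SNU13, an RNA-binding protein of the spliceosome and of nucleolar particles, had 34, 23 and 17 in control and 30 and 28 in HA-Bcl-xL. At all 5 the lines overlapped. MYO1F, a class I myosin of blood cells, had the highest rank of all, with 50, 44 and 30 in control and 31 and 47 in HA-Bcl-xL. Its member ends are 2 transcripts without a complete coding sequence that start in a coding exon, and the summits lay 958 to 986 bp past the end, near the edge of the window, so whether that start is the marked one was not tested.

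Internal starts can shorten the protein, and the annotation allowed this to be counted at 613 sites. At 286 (46.7%) the internal transcript used the same coding start as at least 1 upstream transcript, which need not be the one with the longest coding sequence. At 132 (21.5%) its coding start lay upstream of all others, at 148 (24.1%) it was in another exon, and at 47 (7.67%) it lay later inside a coding exon of an upstream transcript. The 195 sites (31.8%) of the last 2 classes lost a median of 46.3 residues relative to the upstream transcript, counted as coding bases over 3, and 64 lost over 100. No complete coding transcript started at 78 sites, and none started upstream at 102. These are properties of the annotation, and no transcript or protein was measured.

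The largest losses among sites with peaks in all 5 lists were in TACC2, RABGAP1L, ACIN1 and DLGAP4. TACC2, a centrosomal protein, lacked 2296 residues in the internal form, and its site had pileups of 23, 17 and 17 fragments in control and 20 and 25 in HA-Bcl-xL, with no peak at the most 5′ end. RABGAP1L lacked 780 residues at all 3 of its sites relative to the upstream reference transcript, and its most 5′ end was marked in 3 lists. ACIN1, a nuclear protein of the splicing machinery named for a role in apoptotic chromatin condensation, lacked 766 residues, with 39, 30 and 28 in control and 36 and 22 in HA-Bcl-xL, and was marked at both ends in all 5 lists. DLGAP4, a postsynaptic scaffold protein, lacked 549 residues, with 13, 11 and 10 in control and 13 and 19 in HA-Bcl-xL and no most 5′ peak. The RABGAP1L sites at 715 and 716 kb shared the same strongest peak in 4 of the 5 lists.

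A list of 69 genes known for alternative promoters had 68 with an eligible internal end, and 13 of them (19.1%) held a member, against 6.27% of all such genes. The members were RUNX1, TCF12, DNMT3A, SHC1, LMNA, NFIA, DST, MACF1, PLEC, TPM3, PDE4D, SEPTIN9 and KALRN. Genes with many annotated ends have more chances to meet the rule, so the share is given as a description. TCF12, TPM3 and LMNA had peaks in all 5 lists. TCF12, a bHLH transcription factor, had pileups of 35, 28 and 21 fragments in control and 29 and 22 in HA-Bcl-xL, with summits 408 to 562 bp past the end of a form lacking 193 residues. TPM3, a tropomyosin whose short forms come from an internal promoter, had 18, 9 and 10 in control and 22 and 15 in HA-Bcl-xL, with summits 798 to 1017 bp past the end, at a site whose internal form lacks 81 residues. LMNA, which encodes the nuclear lamins A and C, had 16, 17 and 13 in control and 19 and 17 in HA-Bcl-xL at its MANE Select start 32.1 kb downstream, with every summit at -18 to -12 bp. At TCF12, TPM3 and LMNA the most 5′ end had no peak in any list, and the lines overlapped.

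Others of the 13 lacked a peak in 1 or 2 lists. RUNX1 had 14 fragments in control replicates 1 and 2 and in HA-Bcl-xL replicate 2 and no peak in the other 2 lists. DNMT3A, a de novo DNA methyltransferase with a short form known from an internal promoter, had 9, 6 and 7 in control and 7 in HA-Bcl-xL replicate 2, at a site whose form lacks 213 residues, with no peak in HA-Bcl-xL replicate 3. NFIA, a nuclear factor I protein, had 11 in control replicate 1 and 9 and 8 in HA-Bcl-xL, with no peak in control replicates 2 and 3. SHC1, an adaptor of receptor tyrosine kinases, was the only 1 of the 13 whose most 5′ end was marked in all 5 lists. Its internal MANE Select start, 3.648 kb downstream, whose coding start lies upstream of the others, had 29 in control replicate 1 and 22 and 34 in HA-Bcl-xL, and no peak in control replicates 2 and 3.

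MACF1, which bridges actin and microtubules, had 8, 10 and 7 fragments in control and 7 in HA-Bcl-xL replicate 3 at a start 328.2 kb downstream whose form lacks 5309 residues. In HA-Bcl-xL replicate 2 its nearest peak lay 1497 bp away. DST, a related linker, had 10 and 6 in control replicates 1 and 2 and 8 and 10 in HA-Bcl-xL. KALRN, a guanine nucleotide exchange factor, had 9 and 7 in control replicates 1 and 2 and 12 and 11 in HA-Bcl-xL, at a site whose form lacks 1727 residues. PDE4D, a cyclic AMP phosphodiesterase, had 23 and 11 in control replicates 1 and 2 and 16 and 21 in HA-Bcl-xL at a site of 3 ends about the position 753.3 kb downstream. From that end itself the control replicate 2 peak lay 1066 bp away, so its 11 fragments belong to another end of the site. SEPTIN9, a filament-forming GTPase, had 17, 9 and 10 in control and 12 in HA-Bcl-xL replicate 2, with summits 836 to 861 bp past the end. Of these 5 genes, only DST had any peak at the most 5′ end, in 1 list.

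**Figure D4:**
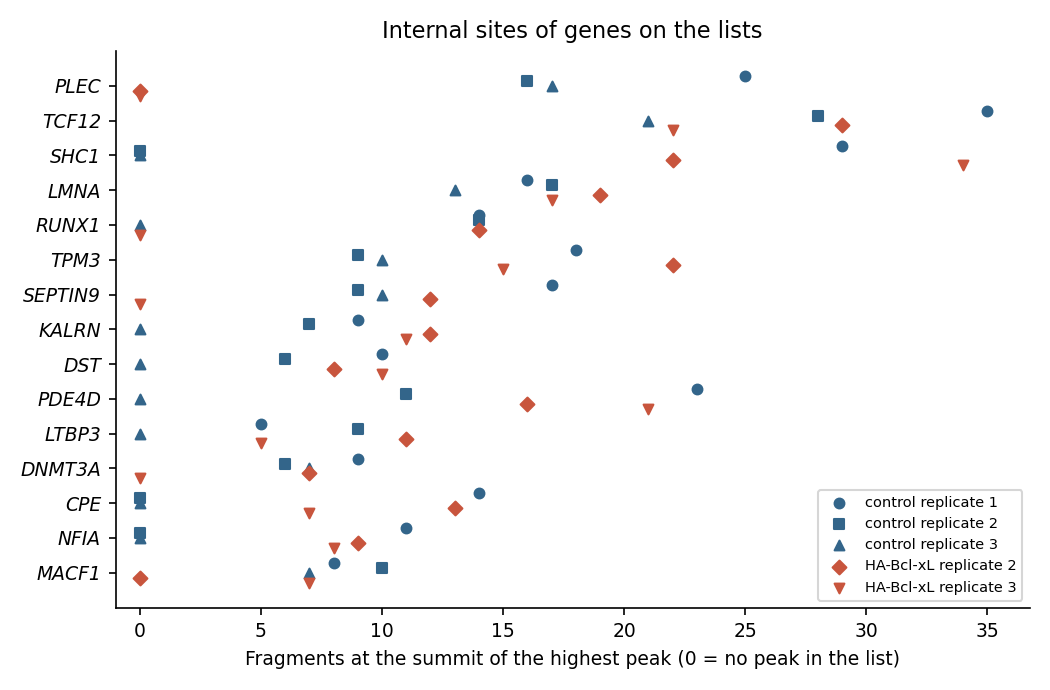
Fragment pileup at the summit of the highest H3K4me3 peak at internal sites of the list genes (13 genes known for alternative promoters, LTBP3 and CPE), with 1 symbol per library and 0 for no peak in the list. TCF12, TPM3 and LMNA had a peak in all 5 libraries, and symbols of the lines overlap at each.

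In the other lists the share with a member was near or below the 6.27% of all genes with an eligible internal end, and none of these lists was tested. CPE was the only member among 16 eligible genes of 22 neuroendocrine markers (6.25%). CPE encodes carboxypeptidase E, which trims prohormones in secretory granules, and its MANE Select start lies 17.8 kb inside a longer annotated gene. It had 14 fragments in control replicate 1 and 13 and 7 in HA-Bcl-xL, with summits at 977, 800 and 1029 bp past the MANE Select start, near the edge of the window. In control replicates 2 and 3 the nearest peaks lay 50345 and 50751 bp away. As to the cell type, 12 of the 22 markers had a most 5′ peak in at least 1 list, against 48.3% of all protein-coding genes, with CHGB, NEUROD1, SCG2, SCG3 and SYT1 in all 5, and 10 had none, INSM1, ISL1 and SSTR2 among them. LTBP3, which holds latent TGF-beta in the matrix, was the only member among 24 eligible TGF-beta and BMP signalling genes (4.17%). It had 5 and 9 in control replicates 1 and 2 and 11 and 5 in HA-Bcl-xL, at an end in a coding exon, with summits 858 to 903 bp past it. At TPM3, SEPTIN9, CPE and LTBP3, as at MYO1F, CRK and PPFIA3, whether the named start is the marked one was not tested. None of 17 eligible genes for H3K4 methylation, CtBP and neuroendocrine tumor chromatin and none of 8 eligible BCL2 family genes held a member, while 16 of 21 and 8 of 16 of those lists' genes had a most 5′ peak in at least 1 list, against the same 48.3%.

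The share of marked internal ends overlapped between the lines, and that overlap rests on control replicate 1. The H3K4me3 lists held 17687, 12138 and 10237 peaks in control and 16363 and 15478 in HA-Bcl-xL, and the IgG lists 1665 to 2106 in control and 239 to 262 in HA-Bcl-xL. Of all eligible internal ends, 8.09, 5.81 and 5.16% had a peak in control and 7.76 and 7.21% in HA-Bcl-xL, so both HA-Bcl-xL values lay inside the control range. This share had the same order as the number of peaks in the 5 lists. The means were 6.35 ± 1.54% (SD, n = 3) and 7.49 ± 0.389% (SD, n = 2), a difference of 1.13 points (exact permutation test, two-sided, p = 0.6; 3 against 2 libraries cannot go below 0.2). Leaving out the longest control list, replicate 1, gave 2.00 points, and the lines then did not overlap (exact permutation p = 0.333, the smallest that 2 against 2 libraries allow). Leaving out the shortest, replicate 3, gave 0.536. With only basic transcripts the difference was 3.28 points and with only protein_coding transcripts 2.19. With the 10237 peaks of smallest p from each list it was 0.404, and there the lines did not overlap (exact permutation p = 0.2).

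**Figure D5:**
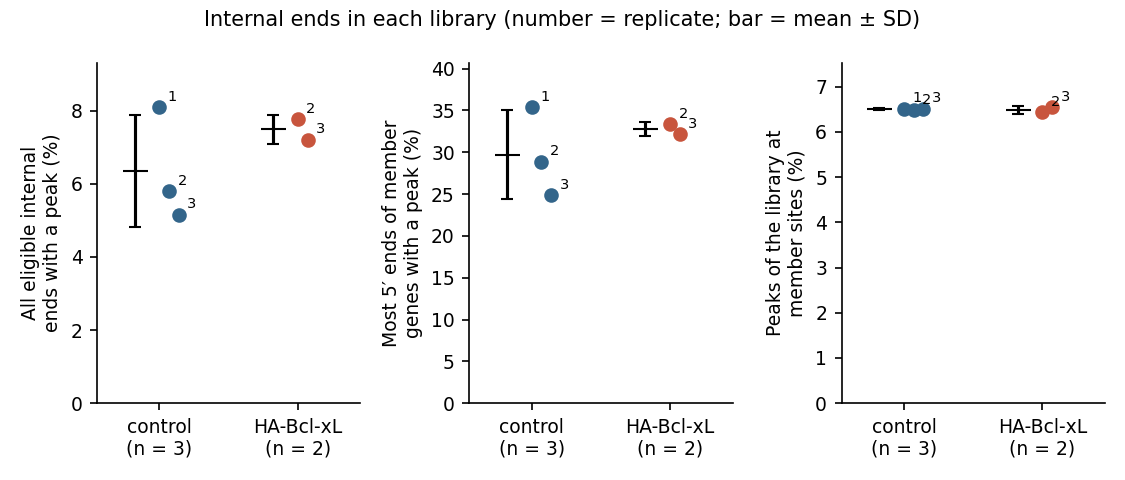
Percentage of eligible internal ends with a peak, of most 5′ ends of member genes with a peak, and of the library's peaks that lie at member sites, in each H3K4me3 library. Points are libraries numbered by replicate and bars the mean ± SD (3 control, 2 HA-Bcl-xL); the HA-Bcl-xL points lie within the control range in the first and second panels, and all points in the last panel lie between 6.43 and 6.54%.

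Of each list's own peaks, 6.51, 6.48 and 6.52% lay at member sites in control and 6.43 and 6.54% in HA-Bcl-xL, which is a description, since these lists chose the sites. At the most 5′ ends of the 752 genes, which the rule did not use, 35.4, 28.9 and 24.9% had a peak in control and 33.4 and 32.2% in HA-Bcl-xL. These means were 29.7 ± 5.30% (SD, n = 3) and 32.8 ± 0.846% (SD, n = 2), which overlapped (difference 3.08 points, exact permutation p = 0.6). Over all protein-coding genes the share was 40.5, 32.4 and 28.2% in control and 38.2 and 36.5% in HA-Bcl-xL, in the same order. Leaving out control replicate 1 made the difference at member genes 6.48 points, with no overlap between the lines (exact permutation p = 0.333), leaving out control replicate 3 made it 0.503, and lists of equal length made it 0.313. The share of summits downstream was 59.0 ± 1.20% (SD, n = 3) in control and 60.0 ± 0.684% (SD, n = 2) in HA-Bcl-xL, a difference of 0.937 points (exact permutation p = 0.6). That last difference was 0.0474 points without control replicate 3 and 0.0528 without HA-Bcl-xL replicate 3. It was 2.45 points with peaks within 500 bp (exact permutation p = 0.4) and 2.44 with −log10 q of at least 5, where the lines did not overlap (exact permutation p = 0.2). With lists of equal length it was 0.844, and the lines did not overlap there either (exact permutation p = 0.2). Adjusted over these 3 planned comparisons by the Benjamini-Hochberg method, each exact permutation p was 0.6.

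Few internal ends separated the lines by presence. A peak in all 3 control lists and in no HA-Bcl-xL list was found at 17 ends, 0.0296% of the eligible ends, and the same pattern was found at 0.249% of all most 5′ ends. The opposite pattern, both HA-Bcl-xL lists and no control list, was found at 119 eligible ends, 0.207%, which the 3-list rule keeps out of the members, and at 0.846% of most 5′ ends. All these shares are over marked and unmarked ends alike. Peaks in at least 3 lists and no IgG peak were at 6.77% of eligible internal ends but at 35.3% of most 5′ ends. The lower shares at internal ends therefore do not show that marked internal ends separated the lines less often. The control-only sites were in PLEC, ARMH4, SGK3, AP3D1 and SLC40A1 at the level of whole sites. PLEC, the cytolinker plectin, had 25, 16 and 17 fragments in control, but its control peaks lay 983 to 985 bp from the end and its nearest HA-Bcl-xL peaks 1002 and 1014 bp, on either side of the 1 kb limit. ARMH4 had 8, 8 and 6 in control at its MANE Select start, its most 5′ end was marked in all 5 lists, and its nearest HA-Bcl-xL peaks were over 47 kb away, at 47610 and 47622 bp. SLC40A1, the iron exporter ferroportin, had 8, 6 and 6 in control, with the nearest HA-Bcl-xL peaks at 80619 and 80618 bp. AP3D1, a subunit of an endosomal coat adaptor, had 8, 8 and 7, and an HA-Bcl-xL replicate 3 peak 1120 bp away. SGK3, an endosomal kinase, had 6, 5 and 7. Apart from PLEC, these peaks were at or below the typical pileup of about 10 fragments. Leaving out HA-Bcl-xL replicate 2 raised the count of such ends from 17 to 106, and leaving out replicate 3 raised it to 52.

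Peak width gave no called difference at the internal ends. Among 4923 regions with a peak in all 5 lists, limma with Benjamini-Hochberg adjustment on log2 bases under peaks called 0 regions (0.0%) between the lines, and 372 of those regions were at members. At members 21 regions (5.65%) had an unadjusted limma p under 0.05, against 5.26% of all regions. The smallest limma p at a member wider in HA-Bcl-xL was at NBPF24 (chr1:147624504-147624775), with 145, 116 and 100 bases in control and 272 and 239 in HA-Bcl-xL, log2 1.06 ± 0.240 (SE), adjusted p = 0.562. NBPF24 belongs to a family of near-identical copies, so its reads may be misplaced. ZNF638, a zinc finger gene, had 327, 126 and 131 against 365 and 375. The regions narrower in HA-Bcl-xL with the smallest limma p were at NACA (chr12:57118804-57119239), a nascent chain-binding protein of the ribosome, with 343, 413 and 281 against 175 and 172, log2 -1.02 ± 0.268 (SE), adjusted p = 0.609, and at ATOH8, a bHLH transcription factor, with 154, 159 and 153 against 84 and 90. These 4 regions were picked for their small limma p, so the lack of overlap between the groups at each is a description. None passed the adjusted threshold of 0.05.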

How the data were processed

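Peak lists for 5 H3K4me3 and 6 IgG libraries were used, 1 list per library. Per the submitters' processing notes, bcl2fastq 2.20, Trimmomatic 0.36, Bowtie2 2.2.9, MACS2 2.1.1 and deepTools 3.5.1 were used with build hg19; parameters, filters and the MACS2 control are not given in the sources used here. Per peak, the authors deposited a fold enrichment ratio at the summit, −log10 p-values and −log10 q-values, and a score that is 10 times the −log10 q as a whole number. Read totals were not used here, so sequencing depth is unknown. The summit pileup was solved from the deposited fold and −log10 p (Poisson, tolerance 0.001), and it holds counting error of PCR-amplified fragments without molecular identifiers.

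Transcript ends came from GENCODE on GRCh37. A peak within 1 kb of an end marked it. Shares were compared between lines with two-sided exact permutation tests over libraries (scipy 1.17.1), and widths with limma 3.58.1 in R 4.3.3, centred on the library median and tested on simulated data; other steps used Python 3.11.15, numpy 2.4.6 and pandas 2.3.3. The labels do not say that replicates were separate cultures, so p-values measure only the spread between these samples. Regions were named by these rules: highest rank of −log10 p with and without a marked most 5′ end (6 genes each), farthest downstream (3), largest loss of residues (5 sites), control-only (5), smallest limma p (2 per direction), and every member of the gene lists. The gene lists were genes known for alternative promoters, H3K4 methylation, CtBP and tumor chromatin genes, TGF-beta and BMP signalling genes, the BCL2 family, and neuroendocrine markers. The members and lists were chosen with earlier results of these data known. Alternatives varied the peak threshold, list length, window, annotation, distance, number of lists, width settings and replicates.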

Additional observations from a re-analysis of the deposited data

How the results depend on the processing

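Over all settings the difference between the lines ranged from 0.404 to 3.28 points for eligible ends, from 0.313 to 6.48 for most 5′ ends of member genes and from 0.0474 to 2.45 for downstream summits; each value was above 0, and the design cannot reach a p of 0.05. The member count of 3883 was 2465 with only transcripts of type protein_coding, 1851 with basic transcripts and 2036 with peaks required in all 5 lists. The share of member genes without a most 5′ peak (57.4%) was 61.7% with −log10 q of at least 5, 64.2% within 500 bp, 44.5% within 2 kb and 52.6% in all 5 lists. The share of member ends whose coding starts downstream of the gene's first coding start, 45.2% of 2929, was 47.1% for protein_coding transcripts and 41.5% in all 5 lists. The 17 control-only ends were 10 with −log10 q of at least 5, 28 with equal list lengths, 10 with basic transcripts, and 52 to 106 with an HA-Bcl-xL library left out; leaving out a control library or requiring 4 lists forces this count to 0 by construction. Leaving out libraries gave 3084 to 3620 members.

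The labels' replicate numbers 2 and 3 occur in both lines, but nothing in the labels makes them pairs. With the replicate number as a block, the difference was 2.00 points for eligible ends, 5.92 for most 5′ ends of member genes and 1.34 for downstream summits, and limma called 0 regions. The cause of these changes was not tested. Lists of 9 to 12 median summit fragments, 2 HA-Bcl-xL libraries and no read totals limit what could be detected.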

Other observations

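Short promoter motifs, searched on both strands from 250 bases upstream to 50 downstream of the end, differed between kinds of end as follows. GGGCGG, the core of the GC box, was in the window of 62.4% of internal sites, 22.7% of the unmarked most 5′ ends of the same genes, 9.95% of eligible internal sites with no peak and 67.4% of all most 5′ ends marked in at least 3 lists, the set closest to the rule for the internal sites (52.2% of all most 5′ ends). CCGGAAGT, the core bound by ETS factors, was at 4.92% of internal sites, against 0.463% of the unmarked most 5′ ends and 10.9% of the marked most 5′ ends of all genes, or 7.66% of those of the same genes; it was at 5.08% of all most 5′ ends, marked or not. TGACGTCA, the cyclic AMP response element, was at 3.15% of internal sites, 0.0% of the unmarked and 3.57% of the marked most 5′ ends of all genes, or 1.28% of those of the same genes (2.29% of all most 5′ ends). TATAAA was at 7.06% of internal sites, 15.3% of the unmarked most 5′ ends of the same genes, 5.72% of the marked most 5′ ends of all genes, 6.38% of those of the same genes and 10.9% of all most 5′ ends. The CCAAT box, the E-box core CACGTG and the NRF1 palindrome were at 38.6, 8.70 and 1.39% of internal sites and at 39.9, 9.74 and 2.90% of the marked most 5′ ends of all genes (35.8, 8.33 and 1.49% of all most 5′ ends). Within the internal sites, MANE Select and other sites held CCGGAAGT at 7.01 and 1.36% and TGACGTCA at 4.61 and 0.680%. These sets differ in GC content, which alone changes how often such letters occur, and a match is not a bound site.

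Of the 752 genes, 38 had 2 or more sites, and no matching count was made over all eligible genes. ACAP3, an Arf GTPase-activating protein, PPFIA3 and RABGAP1L each had 3, though sites of PPFIA3 and of RABGAP1L shared peaks, as given above. The ACAP3 sites lay 3.68, 4.708 and 9.992 kb downstream, with peaks in 5, 5 and 4 lists and none at the most 5′ end.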
